A study of Mus musculus with 33 samples.

Results

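The genes described here build, cross-link and remodel the extracellular matrix of the liver, or mark the hepatic stellate cells that make much of it. The list names 41 genes: 5 fibrillar collagen chains, 4 chains of collagen VI and XIV, 7 basement membrane genes, 6 matrix glycoproteins, 3 small leucine-rich proteoglycans, 9 cross-linking and remodelling genes and 7 stellate cell and cytoskeleton genes. Each gene was read from the probe set with the highest mean among those annotated with that symbol alone. For Loxl2, a lysyl oxidase, no probe set met that rule, and it is not analysed here. The other 40 members passed the filter on low values, among 18193 genes measured and 13642 tested.

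Gene expression was measured in mouse liver after a 70% partial hepatectomy, the surgical removal of most of the liver, after which the remnant grows back. Affymetrix arrays were hybridized with total RNA from 3 livers at each of 11 times, 33 arrays in all. The times in days (d) were 0, then 0.25, 0.5 and 0.75 within the first day, after it 1 and 1.5, and later 2, 3, 4, 7 and 14. Every group is liver labelled with the operation, and the 0 d livers, labelled as 0 days after it, are the baseline. The labels name no sham operation, which leaves surgery and tissue loss measured together. Strain, sex and age of the mice are not given in the sources used here. The labels call the 3 livers of a time biological replicates. The description fields of all 33 arrays name other material, fat tissue or cells called DFAT, although liver stands under tissue and source. The hepatocyte gene Alb lay between 14.60 and 14.80 on the log2 scale on all 33 arrays.

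Collagen fibrils of types I, III and V give connective tissue its tensile strength, while type IV collagen, laminins and nidogen form the sheet-like basement membranes under epithelia and around vessels. In the liver the sinusoids carry only a sparse, discontinuous matrix, and stellate cells lie beside them, store vitamin A and, when activated, turn into contractile cells that secrete fibrillar collagen. Metalloproteinases of the MMP and ADAMTS families cut matrix proteins, and the TIMP proteins inhibit them. Whole liver was measured, so fewer cells of a type and less RNA per cell cannot be told apart.

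Values below are log2 RMA signals, which scale with abundance for a probe set but are not compared between genes, and a difference is the log2 mean of a time minus that of 0 d, ± its standard error. The words rose and fell stand for an adjusted p under 0.05 in limma's moderated test (Benjamini-Hochberg over the 13642 genes). The same 3 arrays of 0 d enter all comparisons with 0 d. Array medians lay between 5.32 and 5.38, and precision is limited by the 3 arrays per time.

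A pair of arrays stood apart in genes of vessel wall and connective tissue, 0.25 d replicate 2 and 0 d replicate 3. Myh11, the smooth muscle myosin heavy chain, read 6.01 at 0.25 d and 6.53 at 0 d on these arrays, against 4.46 to 5.41 on the other 31 arrays. Cnn1, which encodes the smooth muscle protein calponin, read 5.50 and 5.66 on these arrays, against 3.65 to 4.50 on the others. The mean over the 7 smooth muscle markers ranged from 5.24 to 5.86 at 0.25 d and from 5.18 to 6.05 at 0 d, and from 5.01 to 5.48 at all other times. The fat cell hormone gene Adipoq read 5.80 and 5.38 on the same arrays. It read higher still on 2 d replicate 3 (5.86) and on 7 d replicate 3 (7.07), and so did not set the pair apart. The other fat cell genes measured, Lep and Retn, read 3.18 to 3.72 and 5.79 to 6.82 over all arrays. Among members, dermatopontin (Dpt) read 8.71 and 9.10 there against at most 7.14 on the other arrays. Calls that ended or were added without both of these arrays are given beside the results, an alternative chosen after seeing the data. The part these markers play in the results was not tested.

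The times at 0.25, 0.5, 0.75 and 1.5 d carry sample numbers from another range than the remaining times. The labels name no batch, and any difference in handling behind these numbers cannot be told apart from time. Of the 40 members, 0 differed between 1.5 d and the mean of its neighbours 1 d and 2 d by limma (1 higher and 1 lower at an unadjusted p under 0.05), where 0.00733% of all genes were higher and 0.0147% lower (0.0220% in all). At the unadjusted threshold 3.53% of all genes were higher and 3.62% lower.

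Over the 11 times 32 of the 40 members varied by limma's moderated F-test, a share close to that of all genes tested, of which 69.4% varied. Those that did not vary were Dpt, Thbs1, Lox, Loxl1, Acta2, Tagln, Des and Pdgfrb. Of these, Dpt, Thbs1, Lox and Loxl1 still passed at single times against 0 d. Against 0 d, 16 members rose at one or more times without falling at any, 12 fell without rising, 1 (Timp3) did both, and 11 passed the test at no single time. Of all genes 35.1% rose at one or more times, 38.9% fell at one or more and 31.2% passed at none. Mean levels were highest at 4 d for 9 members and at 7 d for 11, while 7 peaked at 0.25 d and 0 at 14 d. Peak times were not counted over all genes, so these counts do not show a trait of the members. They also include members that did not vary by the F-test. The plot of differences by gene and time shows 3 courses: early falls of interstitial collagens, early rises of proteases, fibronectin and type IV collagen, and later rises of type IV collagen, nidogen, Sparc and Col5a2.

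**Figure D1:**
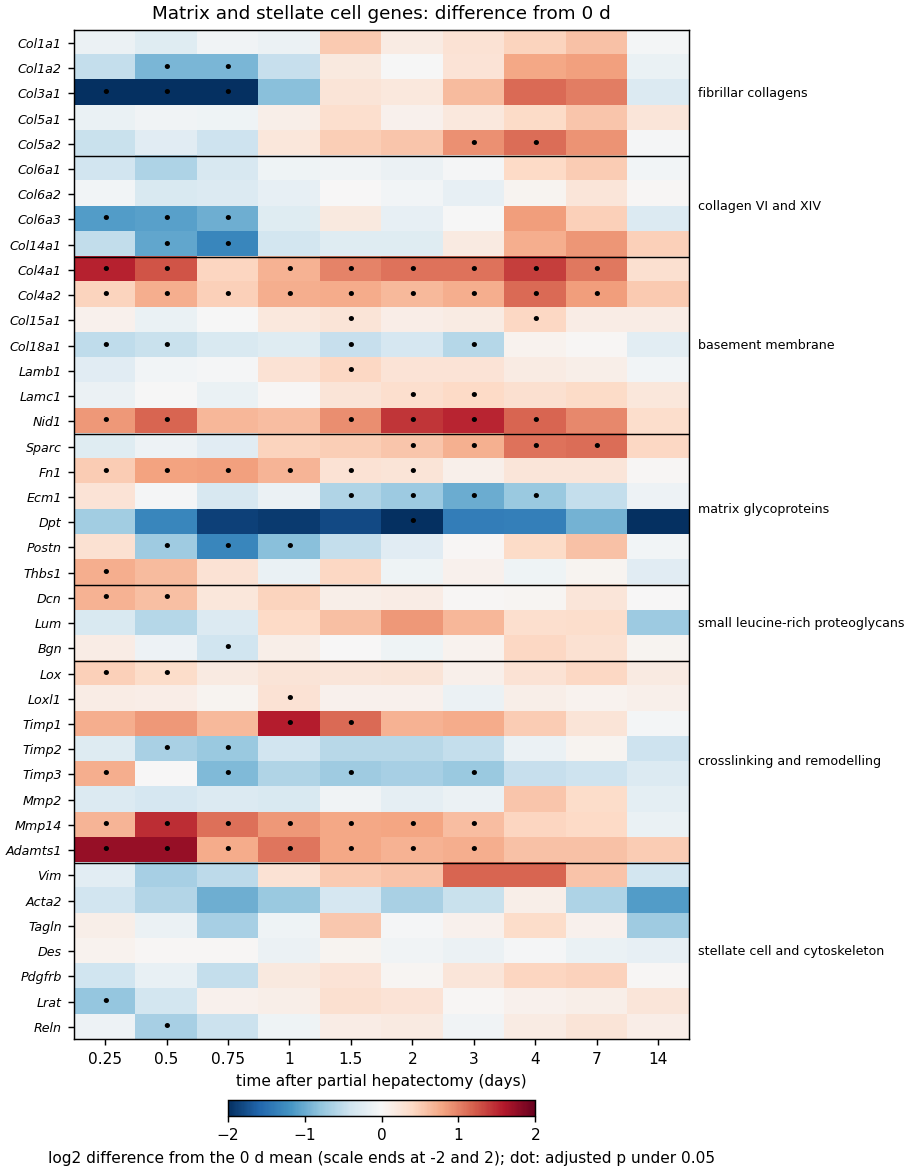
Log2 difference from the 0 d mean for the 40 members (rows, by class) at each later time in days (columns), with dots where limma's adjusted p was under 0.05. Blue cells on the left mark Col3a1, Col6a3, Col14a1 and Postn, and the dots of Col4a2 run through 9 of the 10 times.

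At 0.25 d 10 members rose and 4 fell, where 17.2% of all genes rose and 28.8% fell (45.9% in all). At 0.5 d 8 rose and 8 fell (all genes 15.8% and 19.4%, together 35.2%), and at 0.75 d 4 rose and 8 fell (9.84% and 12.7%, together 22.5%). From 1 d the members that passed were mostly higher. Their counts were 7 higher and 1 lower at 1 d (all genes 8.16% and 9.55%, together 17.7%) and 9 and 3 at 1.5 d (8.33% and 11.7%, together 20.0%). They were 8 and 2 at 2 d (all genes together 22.5%) and 8 and 3 at 3 d (10.2% and 10.9%, together 21.2%).

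At the later times fewer genes of the whole array passed against 0 d. At 4 d 6 members rose and 1 fell, against 1.88% and 0.975% of all genes (2.86% in all), and at 7 d 3 rose and 0 fell, against 0.125% and 0.0586% (0.183% in all). At 14 d limma called 0 members, and 0.0147% of all genes were higher and 0% lower. At an unadjusted p under 0.05 there were 16 higher and 1 lower member at 7 d, and 4 higher and 3 lower at 14 d. At that threshold 5.93% of all genes were higher and 6.98% lower at 7 d, and 6.03% and 7.67% at 14 d. The median difference over the 40 members was -0.11, -0.12, -0.27, 0.07, 0.25, 0.11, 0.10, 0.39, 0.36 and -0.04 at the 10 times in order, while the median over all genes stayed between -0.05 and 0.00.

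Without 0.25 d replicate 2 and 0 d replicate 3 the members higher and lower numbered 8 and 5 at 0.25 d (13.9% and 27.6% of all genes in that fit), 8 and 5 at 0.5 d (13.8% and 17.7%) and 6 and 3 at 0.75 d (8.21% and 11.2%). They numbered 9 and 0 at 1 d (all genes 7.78% and 9.21%), 12 and 2 at 1.5 d (7.59% and 11.2%), 10 and 1 at 2 d (10.3% and 11.2%) and 10 and 2 at 3 d (9.44% and 10.5%). At the later times they were 9 and 1 at 4 d (all genes 1.88% and 0.799%), 2 and 0 at 7 d (0.169% and 0.066%) and 0 and 0 at 14 d (0% and 0%).

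The split of all genes into higher and lower calls depends on scaling at some times. At 0.25 d 2340 genes were higher and 3925 lower, but 3262 and 2959 after quantile normalization of the gene values. The same setting gave 1652 and 1428 at 0.75 d, where the fit gave 1342 and 1734, and 13 and 2 at 7 d in place of 17 and 8. With arrays shifted to a common median the counts were 1174 and 2002 at 3 d in place of 1398 and 1490, and 217 and 196 at 4 d in place of 257 and 133. The members' own counts moved by at most 2 in either direction under these settings.

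**Figure D2:**
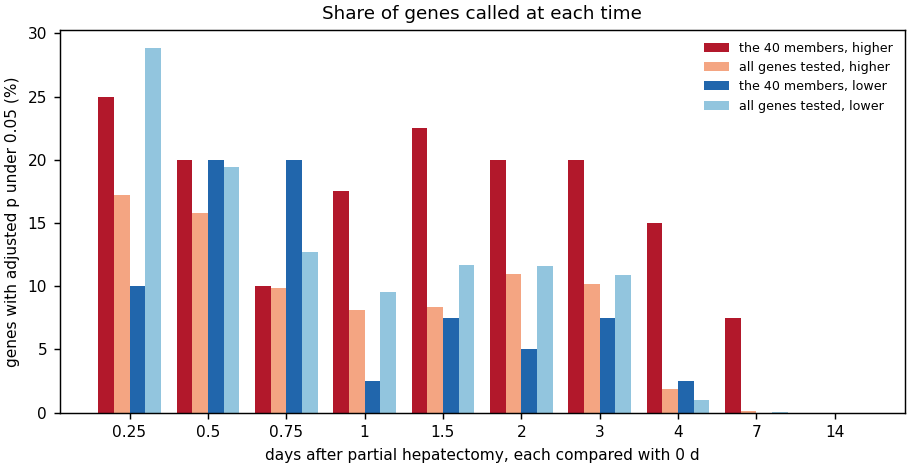
Percent of the 40 members (dark bars) and of all 13642 genes tested (light bars) called higher (red) or lower (blue) than 0 d by limma at an adjusted p under 0.05, by days after surgery. At 4 d the members stand at 6 higher and 1 lower, while 1.88% and 0.975% of all genes were called.

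Leaving out arrays one at a time moved several of these counts by more than 1.5 times. Members called fell to 10 of 40 at 0.5 d without 0.5 d replicate 3, to 7 at 0.75 d without 0.75 d replicate 2, and to 5 at 1 d without 1 d replicate 3. At 1.5 d they fell to 7 without 1.5 d replicate 2 or 0 d replicate 1 and to 5 without 1.5 d replicate 3, and at 2 d to 5 without 2 d replicate 1 and 6 without 2 d replicate 3. The counts were 7 at 3 d without 3 d replicate 1 and 5 without 0 d replicate 1. At 7 d 0 were called without 7 d replicate 1 or without 0 d replicate 1, and 1 without 7 d replicate 3.

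Promoter windows from RefSeq (mouse build GRCm38.p6) were matched for 27 of the 41 listed genes, each from 250 bases before to 50 after the annotated start. Those of 5 members with large changes are shown to let the upstream letters of genes that fell early (Col3a1, Col1a2) be set beside those that rose early (Nid1, Mmp14, Adamts1). Each line gives the 150 bases before the start, on the gene's own strand, with capitals marking the TATA box letters TATAAA and the CCAAT box letters CCAAT or, for the other strand, ATTGG.
Col3a1, chr1:45311388-45311537, plus strand: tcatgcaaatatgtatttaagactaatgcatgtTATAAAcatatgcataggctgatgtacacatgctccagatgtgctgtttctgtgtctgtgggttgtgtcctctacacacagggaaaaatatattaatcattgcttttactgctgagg
Col1a2, chr6:4505468-4505617, plus strand: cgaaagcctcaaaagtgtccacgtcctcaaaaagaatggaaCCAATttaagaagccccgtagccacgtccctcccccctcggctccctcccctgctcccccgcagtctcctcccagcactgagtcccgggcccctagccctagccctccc
Nid1, chr13:13437452-13437601, plus strand: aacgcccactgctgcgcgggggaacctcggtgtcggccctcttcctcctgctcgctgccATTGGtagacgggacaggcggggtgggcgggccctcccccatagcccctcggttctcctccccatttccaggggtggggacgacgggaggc
Mmp14, chr14:54431448-54431597, plus strand: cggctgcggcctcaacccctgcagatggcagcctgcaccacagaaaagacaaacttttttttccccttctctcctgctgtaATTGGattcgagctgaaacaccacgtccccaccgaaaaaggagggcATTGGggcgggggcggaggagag
Adamts1, chr16:85803114-85803263, minus strand: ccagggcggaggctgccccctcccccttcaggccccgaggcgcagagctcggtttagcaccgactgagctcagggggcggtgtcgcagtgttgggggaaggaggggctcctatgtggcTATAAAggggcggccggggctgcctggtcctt
The Adamts1 TATA letters end 27 bases before the start and those of Col3a1 112 bases before it. The windows of Col6a3, which fell early, and Timp1, which rose at 1 d, were also read but are not shown. Neither holds the TATA box or CCAAT box letters in the 150 bases before the start. The lines shown are thus only ones with marked letters. In Timp1 the CCAAT letters lie on the other strand, 190 to 186 bases before the start. The 250 bases before the start were searched on both strands, and the 50 after it were not. TATAAA was found in 5 of the 27 members and in 12.4% of all 32851 promoters, and CCAAT in 11 members and 33.8% of promoters. The GC box letters GGGCGG were found in 17 members and 32.7% of promoters. The AP-1 letters TGANTCA, with N for any base, were found in 2 members and 6.75%, and the CArG box of serum response factor in 0 members and 1.47%. A member was counted once if any of its windows matched, while the percentages are over single promoters, 32851 for 27025 genes. Counts and percentages thus differ in unit. These matches are descriptions of letters, and the motifs searched may overlap each other.

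Of 9 interstitial collagens, 2 fell at 0.25 d, where 28.8% of all genes did, and 4 fell at 0.5 d and at 0.75 d, where 19.4% and 12.7% did. In the fit that omits the pair of arrays set apart above, 3 of the 9 fell at 0.5 d and only Col14a1 at 0.75 d, where 17.7% and 11.2% of all genes fell. At 3 and 4 d 1 of the 9 rose. Of the 5 fibrillar chains, Col3a1 fell at 0.25, 0.5 and 0.75 d, Col1a2 fell at 0.5 and 0.75 d, and Col5a2 rose at 3 and 4 d, while Col1a1 and Col5a1 passed at no single time. Of the 4 chains of collagen VI and XIV, Col6a3 fell at 0.25, 0.5 and 0.75 d and Col14a1 at 0.5 and 0.75 d. All 9 varied by the F-test. The median difference of the fibrillar chains was -0.45 at 0.25 d and 0.82 at 7 d, and that of collagen VI and XIV -0.83 at 0.5 d and 0.56 at 4 d, where the medians of all genes lay between -0.05 and 0.00.

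Col3a1, the single chain of type III collagen, ranged from 5.43 to 11.24 over the 33 arrays. It read 6.97, 8.40 and 5.65 on the 3 arrays of 0.25 d, against 8.65, 9.21 and 10.56 at 0 d. Every 0.25 d array lay below every 0 d array, and the difference was -2.47 ± 0.64, a fold of 0.181 (limma adjusted p = 0.00294). It remained at -2.62 without the pair of arrays set apart above (limma adjusted p = 0.00401), and the call at 0.25 d was kept with each array left out. The Col3a1 differences of -2.37 at 0.5 d and -2.24 at 0.75 d (limma adjusted p = 0.00522 and 0.0125) were less firm. At 0.5 d Col3a1 did not pass without 0.5 d replicate 3 (-1.53, limma adjusted p = 0.0734). At 0.75 d it did not pass without 0.75 d replicate 2 (limma adjusted p = 0.0556) or 0 d replicate 3 (-1.70), nor without the pair of arrays (-1.70, limma adjusted p = 0.0604). By 4 d Col3a1 read 10.18, 11.24 and 10.41, of which 1 array lay above all 3 arrays of 0 d, and the difference of 1.14 ± 0.64 did not pass (limma adjusted p = 0.391).

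Col14a1, a collagen that binds along the surface of fibrils, fell within the first day as well. It read 7.26, 6.62 and 7.13 at 0.75 d, against 7.98, 8.41 and 8.57 at 0 d. No array of 0.75 d reached the 0 d range, and Col14a1 fell by 1.31 on the log2 scale (SE 0.22, limma adjusted p = 6.62e-05), after a fall by 1.04 at 0.5 d. Both calls were kept with each array left out and without the pair of arrays (-1.19 at 0.75 d, limma adjusted p = 0.00119). At 0.25 d Col14a1 did not pass with all arrays but did without 0.25 d replicate 1 (-0.71) or 0 d replicate 1 (-0.66). Its highest mean was 9.21 at 7 d, a difference of 0.89 that did not pass against 0 d.

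Col6a3, a chain of the beaded collagen VI filaments, read 5.35, 6.49 and 5.47 at 0.25 d, against 6.52, 6.91 and 7.24 at 0 d. The groups did not overlap, although the highest early array lay only just below the lowest 0 d array, and the difference was -1.11 ± 0.33 (limma adjusted p = 0.0084). Without 0.25 d replicate 1 it was -0.90 and did not pass (limma adjusted p = 0.0572), and without the pair of arrays it was -1.30 (limma adjusted p = 0.00774). Its falls of -1.08 at 0.5 d and -0.97 at 0.75 d were lost in more settings. At 0.5 d the call for Col6a3 ended on omitting 0.5 d replicate 3 or 0 d replicate 3 (-0.66 and -0.91). At 0.75 d it ended on omitting 0.75 d replicate 1 or 2 and without 0 d replicate 2 or 3 (-0.96 to -0.80), and without the pair of arrays (-0.80, limma adjusted p = 0.109).

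Col1a2, the second chain of type I collagen, read 7.51, 7.51 and 6.96 at 0.5 d and 7.42, 7.12 and 7.45 at 0.75 d, against 7.75, 8.05 and 8.93 at 0 d. All 6 early arrays lay below the 0 d arrays, and both differences were -0.91 ± 0.30 (limma adjusted p = 0.0184 and 0.0284). Without 0 d replicate 3, and likewise without the pair of arrays, both were -0.57 and neither passed. The Col1a2 call at 0.5 d also ended on omitting 0.5 d replicate 3 (-0.73), and the call at 0.75 d without any of the 3 arrays of 0.75 d (-0.97 to -0.80). Col1a1, the major chain of the same collagen, read between 4.91 and 6.59, and its differences from 0 d ranged from -0.25 to 0.58. At 4 d the Col1a2 difference passed without the pair of arrays (1.11, limma adjusted p = 0.0418) or 0 d replicate 3, but not with all arrays. Col6a1 and Col6a2, the other collagen VI chains, differed by -0.62 and -0.30 at 0.5 d and did not pass with all arrays. Both passed without 0 d replicate 1 (-0.88 and -0.37), Col6a1 also without 0.5 d replicate 2 (-0.76) and Col6a2 without 0.5 d replicate 1 (-0.36).

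Col5a2, a type V chain that helps start fibrils, rose later than the others fell. It read 7.54, 7.14 and 7.16 at 3 d and 7.21, 7.63 and 7.58 at 4 d, against 6.19, 6.14 and 6.77 at 0 d. All 6 late arrays lay above the 0 d arrays, with differences of 0.91 ± 0.27 and 1.11 ± 0.27 (limma adjusted p = 0.0164 and 0.0238). The Col5a2 call at 3 d ended on omitting 3 d replicate 1 or 0 d replicate 1 or 2 (0.78 to 0.82), and that at 4 d on omitting 4 d replicate 2 or 3 or 0 d replicate 1 or 2 (0.99 to 1.05). Col5a2 passed at 2 d as well without the pair of arrays (0.77, limma adjusted p = 0.0297), and without 0.25 d replicate 2 it was lower at 0.25 d (-0.81, limma adjusted p = 0.0137). Col5a1 had its highest mean at 7 d, with a difference of 0.56.

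**Figure D3:**
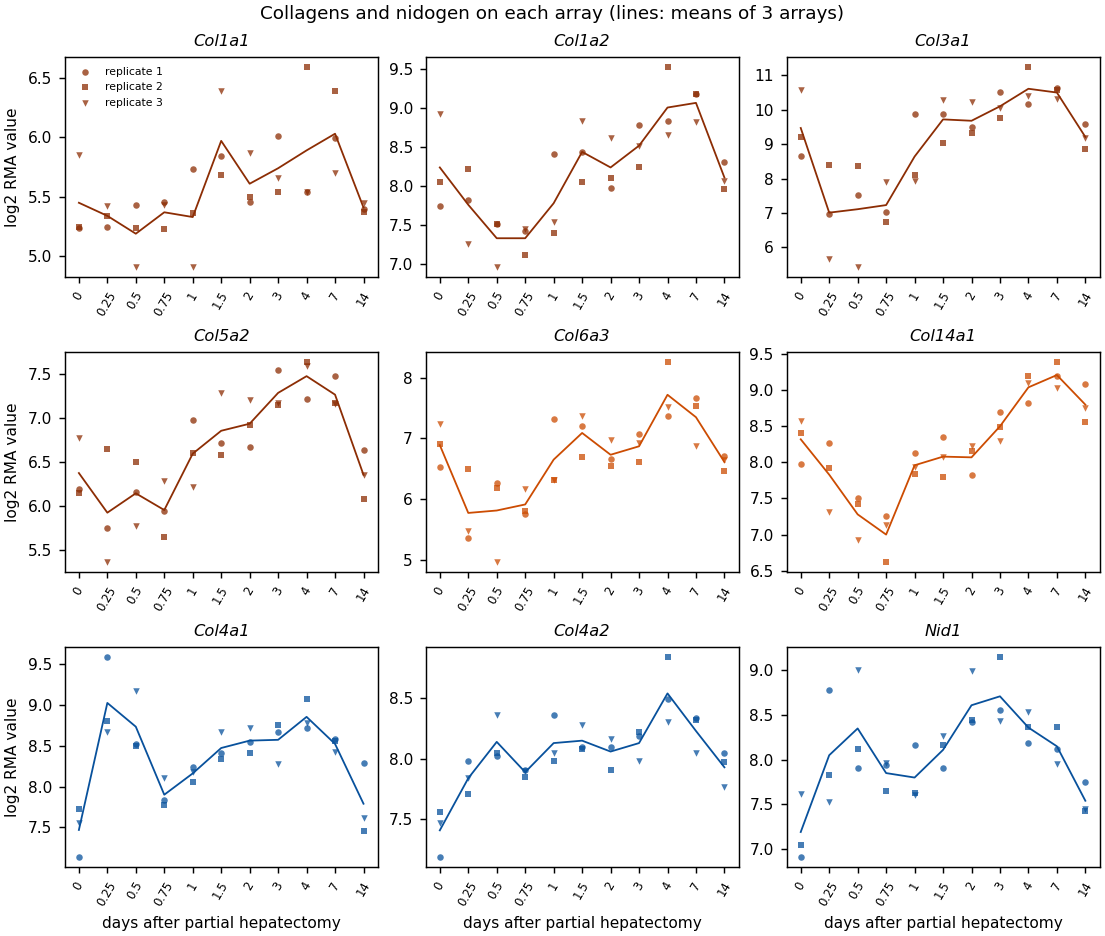
Log2 RMA signal on each array (points, shape by replicate number) and mean of 3 arrays (line) for 9 collagen and nidogen genes against days after surgery (not to scale). Col3a1, Col6a3 and Col14a1 dip between 0.25 and 0.75 d, while all 3 arrays of Col4a1 at 0.25 d lie above the 0 d arrays.

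A comparison of 4 d with 1 d takes no 0 d array into the difference. The pair of arrays set apart above still enters the shared estimate of spread. Here 10 members rose and 3 fell, where 7.63% of all genes rose and 6.04% fell (13.7% in all), and the median over members was 0.28. Without the pair in the fit 10 rose and 4 fell, with Dcn added, where 7.83% and 6.34% of all genes did. Col14a1 read 8.82, 9.20 and 9.10 at 4 d, against 8.13, 7.84 and 7.93 at 1 d, and all 4 d arrays lay above the 1 d arrays. It rose by 1.08 ± 0.22 (limma adjusted p = 0.00122). Postn, which encodes periostin, a matricellular protein of growing connective tissue, read 7.18, 7.77 and 7.73 at 4 d against 6.77, 6.16 and 6.07 at 1 d and rose by 1.22 ± 0.26 (limma adjusted p = 0.0021), again without overlap. The gelatinase gene Mmp2 rose by 0.86 ± 0.21 (limma adjusted p = 0.00722), with 6.78, 6.70 and 6.65 at 4 d and 6.11, 5.80 and 5.64 at 1 d. These 3 calls were kept with each of the 6 arrays left out.

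The other rises between 1 d and 4 d were less firm when arrays were left out. Col1a2 rose by 1.22 ± 0.30 (limma adjusted p = 0.00621), a call that ended on omitting 4 d replicate 2 (0.96). Col3a1 rose by 1.97 ± 0.64 (limma adjusted p = 0.0401), a call that ended on omitting any 4 d array or 1 d replicate 2 or 3 (1.62 to 2.19). Col6a3 rose by 1.07, a call that ended on omitting 4 d replicate 2 or 1 d replicate 2 or 3 (0.79 to 0.90), and Col5a2 by 0.88, a call that ended on omitting 4 d replicate 2 or 3 or 1 d replicate 2 or 3 (0.69 to 0.89). Col4a1 rose by 0.69 and Sparc by 0.65. The call of Col4a1 ended on omitting 4 d replicate 2 or 3 or any 1 d array (0.58 to 0.74) and that of Sparc on omitting 4 d replicate 2 or 3 or 1 d replicate 2 or 3 (0.54 to 0.64). Col4a2 rose by 0.41, with arrays that overlapped, a call that ended on omitting 4 d replicate 1 or 2 or 1 d replicate 2 or 3 (0.27 to 0.44). Members called fell to 5 without 4 d replicate 2, 6 without 1 d replicate 2 and 7 without 1 d replicate 3.

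Most basement membrane genes rose at some time. Of 7 members, 6 rose at one or more times and Col18a1 fell, and all 7 varied by the F-test. Of all genes 35.1% rose at one or more times, 38.9% fell and 69.4% varied. The number of these 7 that rose was 3 at 0.25 and 0.5 d, 1 at 0.75 d, 2 at 1 d, 5 at 1.5 d, 4 at 2, 3 and 4 d, 2 at 7 d and 0 at 14 d. From 0.25 to 1.5 d 17.2%, 15.8%, 9.84%, 8.16% and 8.33% of all genes rose, in order of time. At 3, 4, 7 and 14 d the shares were 10.2%, 1.88%, 0.125% and 0.0147%, and at 2 d 22.5% rose or fell. With the pair of arrays set apart above left out, 2 of the 7 rose at 0.75 d and 1 at 7 d. In that fit 8.21% and 0.169% of all genes rose there, and the members' counts at the other times were unchanged. The median difference of the 7 members was 0.09 at 0.25 d and 0.42 at 1.5 and 4 d.

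Col4a1, which with Col4a2 forms the common type IV collagen molecule of basement membranes, read 9.58, 8.80 and 8.67 at 0.25 d, against 7.14, 7.73 and 7.55 at 0 d. The groups were well apart, and the difference of 1.54 ± 0.22 is a 2.91-fold rise (limma adjusted p = 3.73e-06). At 0.75 d Col4a1 read 7.83, 7.77 and 8.11, close to 0 d, and the difference of 0.43 did not pass (limma adjusted p = 0.164). From 1 to 7 d it passed at every time, with a second high of 8.72, 9.07 and 8.77 at 4 d, where the difference was 1.38 ± 0.22 (limma adjusted p = 0.00112). The Col4a1 calls at 0.25, 0.5, 1.5, 2, 3 and 4 d were kept with each array left out. That at 1 d (0.69) ended on omitting 1 d replicate 1 or 3 or 0 d replicate 1 (0.52 to 0.67). That at 7 d (1.05) ended on omitting any of the 3 arrays of 7 d or 0 d replicate 1 or 3 (0.88 to 1.10), and without the pair of arrays (1.08, limma adjusted p = 0.0643).

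Col4a2 rose at all 9 times up to 7 d. It read 7.98, 7.71 and 7.84 at 0.25 d and 8.49, 8.84 and 8.30 at 4 d, against 7.19, 7.56 and 7.47 at 0 d. Every array at these times lay above the 0 d arrays, with differences of 0.44 ± 0.13 and 1.14 ± 0.13 (limma adjusted p = 0.00912 and 6.93e-05). The Col4a2 calls at 0.25, 0.75 and 7 d were lost in leave-out settings. Those were 0.25 d replicate 1 or 0 d replicate 1 at 0.25 d (0.37 and 0.33), 0 d replicate 1 at 0.75 d (0.37), and 7 d replicate 1 or 0 d replicate 1 at 7 d (0.77 and 0.72). The annotated RefSeq spans of this gene pair lie head to head on chromosome 8 (GRCm38.p6), Col4a1 on the minus strand from 11198423 to 11312889 and Col4a2 on the plus strand from 11312805 to 11449287.

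Nid1, which encodes nidogen, the link between laminin and type IV collagen, had 2 highs. It read 7.91, 8.12 and 9.01 at 0.5 d and 8.56, 9.15 and 8.43 at 3 d, against 6.91, 7.04 and 7.62 at 0 d. Neither group overlapped 0 d, and the differences were 1.16 ± 0.28 and 1.52 ± 0.28 (limma adjusted p = 0.00178 and 0.000291). The Nid1 calls at 0.5, 2 and 3 d were kept with each array left out. The rises at 0.25, 1.5 and 4 d (0.86, 0.93 and 1.17) were lost in some settings. At 0.25 d, where the arrays overlapped, these settings left out 0.25 d replicate 1 or 0 d replicate 1 (0.49 and 0.72), while leaving out the pair of arrays gave 1.18. At 0.75 d Nid1 passed without the pair (0.88, limma adjusted p = 0.0432) or 0 d replicate 3, but not with all arrays. At 1.5 d these were 1.5 d replicate 2 or 3 or 0 d replicate 1 or 2 (0.78 to 0.90), and at 4 d 4 d replicate 2 or 3 or 0 d replicate 1 or 2 (1.03 to 1.17).

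Col18a1, the collagen from which endostatin is released, was the basement membrane member that fell. It read 10.33, 10.94 and 10.86 at 0.25 d and 10.75, 10.52 and 10.68 at 3 d, against 11.14, 11.27 and 11.25 at 0 d. All of these arrays lay below 0 d, with differences of -0.51 ± 0.13 and -0.57 ± 0.13 (limma adjusted p = 0.00191 and 0.00207). It also fell at 0.5 d (-0.45, a call that ended on omitting 0.5 d replicate 3 at -0.36) and 1.5 d (-0.46), and at 4 d read 11.18, 11.34 and 11.34. Col15a1, a related collagen of the outer basement membrane, read between 4.74 and 5.45 on all arrays and rose by 0.42 ± 0.08 at 4 d (limma adjusted p = 0.00368), a call kept with each array left out. Its rise of 0.25 at 1.5 d ended on omitting 1.5 d replicate 1 or 3 or 0 d replicate 1 (0.19 to 0.24). Without 0.5 d replicate 1 Col15a1 was lower at 0.5 d (-0.21).

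The 2 laminin chains among the members passed at few times. Lamb1 rose at 1.5 d only, by 0.42 ± 0.15 (limma adjusted p = 0.0464), a call that ended on omitting 1.5 d replicate 2 or 3 or 0 d replicate 1 or 2 (0.34 to 0.44). Lamc1 rose by 0.34 at 2 d and 0.40 at 3 d (limma adjusted p = 0.0343 and 0.0149). Its calls ended on omitting 2 d replicate 1 or 3 or 0 d replicate 1 at 2 d (0.24 to 0.34), and without 3 d replicate 2 or 0 d replicate 1 at 3 d (0.32 and 0.30).

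Other basement membrane genes, from a list of 17 of which 13 were tested, gave no rise at 0.5 d. Of the 13, 0 rose and 6 fell there by limma, with a median of -0.07, where 15.8% of all genes rose and 19.4% fell. Lama3, a laminin alpha chain, read 5.22, 4.72 and 4.97 at 0.5 d, against 7.43, 7.34 and 6.74 at 0 d. It fell by 2.20 on the log2 scale to near the filter value of 5 (limma adjusted p = 3.29e-09). Lama4, the laminin alpha chain of vessels, fell by 0.78 (limma adjusted p = 0.000156). Nid2, the second nidogen, fell by 0.74 and Lama1 by 0.54, and both of these read near 5 or below. Without the pair of arrays 3 of the 6 calls at 0.5 d were lost, Nid2 among them. The Nid2 call also ended on omitting 0.5 d replicate 3 or 0 d replicate 2 or 3, and that of Lama1 without 0.5 d replicate 2.

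The matrix glycoproteins each took a course of their own. Fn1, which encodes fibronectin, made by hepatocytes for plasma and by other cells for tissue matrix, read 13.66, 13.60 and 13.61 at 0.75 d, against 12.88, 12.74 and 12.79 at 0 d. The replicates differed by far less than the groups, and Fn1 rose by 0.82 ± 0.08 (limma adjusted p = 5.25e-08). It had risen by 0.51 at 0.25 d and 0.80 at 0.5 d, stood 0.68 higher at 1 d, and these 4 calls were kept with each array left out. The smaller rises of Fn1 at 1.5 and 2 d (0.29 and 0.26) were not. They ended on omitting 1.5 d replicate 2 or 3 or 0 d replicate 2 at 1.5 d (0.24 to 0.27), and on omitting 2 d replicate 1 or 2 or 0 d replicate 2 or 3 at 2 d (0.21 to 0.26). From 1 d to 4 d it fell by 0.44 (limma adjusted p = 0.00067).

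Sparc, a collagen-binding glycoprotein, rose late. It read 9.44, 9.92 and 9.71 at 4 d and 9.76, 9.72 and 9.68 at 7 d, against 8.29, 8.56 and 8.96 at 0 d. All 6 late arrays lay above 0 d, with differences of 1.09 ± 0.19 and 1.12 ± 0.19 (limma adjusted p = 0.00277 and 0.0124). The Sparc call at 4 d was kept with each array left out, and that at 7 d ended on omitting 7 d replicate 1 or 3 or 0 d replicate 1 (0.96 to 1.14). Its rises of 0.55 at 2 d and 0.71 at 3 d ended on omitting 2 d replicate 1 or 3 or 0 d replicate 1 or 2 (0.35 to 0.56) and without 0 d replicate 1 (0.55). Sparc also passed at 1 d (0.61) and 1.5 d (0.67) without the pair of arrays or 0 d replicate 3.

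Ecm1, a secreted glycoprotein made in liver, fell from 1.5 to 4 d. It read 8.21, 8.30 and 8.32 at 3 d, against 9.06, 9.31 and 9.44 at 0 d, and fell by 0.99 on the log2 scale (SE 0.14, limma adjusted p = 1.39e-05). The falls of Ecm1 at 1.5, 2 and 4 d were -0.60, -0.72 and -0.75, and all 4 calls were kept with each array left out. Postn read 5.93, 5.55 and 6.13 at 0.75 d, against 6.85, 6.79 and 7.87 at 0 d, all below, with a difference of -1.30 ± 0.26 (limma adjusted p = 0.00059) that was -0.95 without the pair of arrays (limma adjusted p = 0.0072). The Postn falls at 0.5 and 1 d (-0.71 and -0.84) were lost without the pair (-0.36 and -0.49). They also ended on omitting 0.5 d replicate 1 (-0.58) at 0.5 d, 1 d replicate 2 or 3 at 1 d (-0.75 and -0.71), and 0 d replicate 3 at both times. At 0.25 d Postn did not pass with all arrays and was higher without 0 d replicate 3 (0.65, limma adjusted p = 0.0425).

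Dpt, a small protein that binds decorin and collagen, fell at 2 d, to a fold of 0.249 (limma adjusted p = 0.0438). It read 4.64, 5.39 and 5.66 at 2 d, against 6.75, 5.84 and 9.10 at 0 d. The arrays of 2 d lay below all 3 of 0 d, of which replicate 3 stood far above the others. Without the pair of arrays the Dpt difference was -1.07 (limma adjusted p = 0.139), and the call also ended on omitting any 2 d array or 0 d replicate 1 or 3 (-2.25 to -1.07). Without 0 d replicate 2 Dpt was also lower at 0.5, 0.75, 1 and 1.5 d, without 1 d replicate 1 at 1 d (-2.38), and without 0.25 d replicate 2 at 0.25 d (-1.80). Thbs1, the matricellular protein thrombospondin, read 5 or more on 4 arrays only. Its rise by 0.73 at 0.25 d (limma adjusted p = 0.0477), with arrays that overlapped, ended on omitting 0.25 d replicate 1 or 2 or any 0 d array (0.34 to 0.83) and without the pair (0.84, limma adjusted p = 0.0808).

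Among the small leucine-rich proteoglycans, which coat collagen fibrils, decorin (Dcn) rose early. It read 11.51, 11.73 and 11.15 at 0.25 d and 11.40, 11.30 and 11.42 at 0.5 d, against 10.55, 10.57 and 11.19 at 0 d. At 0.25 d the lowest array lay just below 0 d replicate 3, and at 0.5 d the groups did not overlap, with differences of 0.69 ± 0.16 and 0.60 ± 0.16 (limma adjusted p = 0.0012 and 0.00495), kept with each array left out. Without the pair of arrays Dcn also rose at 0.75 and 1 d. Lumican (Lum) passed at no single time, with 8.87, 8.73 and 8.76 at 2 d and 7.64, 7.39 and 8.77 at 0 d. The lone high array of 0 d is replicate 3, and without the pair Lum rose by 1.27 at 2 d (limma adjusted p = 0.00161, against 0.86 and 0.0657 with all arrays), and also at 1, 1.5 and 3 d. Biglycan (Bgn) fell by 0.40 at 0.75 d (limma adjusted p = 0.0389). That call ended on omitting the pair of arrays (-0.25), and without any 0.75 d array or 0 d replicate 2 or 3 (-0.41 to -0.25). At 4 d Bgn was higher without the pair (0.56, limma adjusted p = 0.0243) or 0 d replicate 3.

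The proteases Adamts1 and Mmp14 rose within the first hours. Of 8 cross-linking and remodelling genes tested, 4 rose and 0 fell at 0.25 d, with a median of 0.58 where all genes had -0.03. Of all genes 17.2% rose and 28.8% fell at that time. Adamts1, a secreted protease that cuts proteoglycans, read 8.07, 7.44 and 7.57 at 0.25 d, against 5.94, 5.66 and 6.27 at 0 d. The groups were far apart, and the difference of 1.74 ± 0.24 is a 3.33-fold rise (limma adjusted p = 3.46e-06). At 0.5 d Adamts1 read 7.43, 7.06 and 8.62, again 1.74 higher on average, and at 1 d it was 1.07 higher. The calls at 0.25, 0.5 and 1 d were kept with each array left out. Those at 0.75, 1.5, 2 and 3 d (0.74, 0.78, 0.69 and 0.72) ended on omitting 0 d replicate 1 or 2. They also ended on omitting any array of 0.75 d or 2 d, without 1.5 d replicate 2 or 3, and without 3 d replicate 1 or 2, with Adamts1 differences between 0.54 and 0.77 in these settings.

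Mmp14, a membrane-bound collagenase that also activates Mmp2, peaked at 0.5 d. It read 8.88, 9.04 and 9.36 there, against a mean of 7.62 ± 0.33 at 0 d (SD, n = 3), where the lower arrays read 7.38 and 7.49, with no overlap and a difference of 1.47 ± 0.19, a 2.76-fold rise (limma adjusted p = 1.16e-06). The Mmp14 difference was 1.10 at 0.75 d, 0.87 at 1 d, 0.77 at 1.5 d, 0.79 at 2 d and 0.61 at 3 d. All calls from 0.25 to 2 d were kept with each array left out, and that at 3 d ended on omitting 3 d replicate 1 or 0 d replicate 1 or 2 (0.48 to 0.54). Mmp2 passed at no single time against 0 d with all arrays, where its differences ranged from -0.34 to 0.55. At 0.25 d it was lower without 0.25 d replicate 2 (-0.62, limma adjusted p = 0.00826) and without the pair of arrays (-0.51, limma adjusted p = 0.0433), and at 4 d it was higher without the pair (0.66, limma adjusted p = 0.049).

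The inhibitors followed different courses. Timp1, the inducible inhibitor, read 7.29, 6.61 and 5.49 at 1 d, against 4.86, 4.78 and 5.04 at 0 d. All 3 lay above 0 d but were spread widely, and the difference was 1.57 ± 0.34, a 2.96-fold rise (limma adjusted p = 0.00186) kept with each array left out. At 1.5 d Timp1 was 1.14 higher (limma adjusted p = 0.0187), a call that ended on omitting 1.5 d replicate 3 (0.66) or 0 d replicate 1 or 2 (1.12 and 1.08). Between 1 d and 4 d it fell by 1.07 (limma adjusted p = 0.035), with arrays that overlapped, and that call ended on omitting 4 d replicate 2 or 3 or 1 d replicate 1 or 2 (-1.15 to -0.66).

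Timp3, an inhibitor held in the matrix, rose and then fell. It read 7.66, 8.37 and 8.21 at 0.25 d and 6.34, 6.58 and 6.46 at 0.75 d, against 7.60, 6.93 and 7.51 at 0 d. The first group lay above 0 d and the later group below it, with differences of 0.73 ± 0.25 and -0.89 ± 0.25 (limma adjusted p = 0.0189 and 0.011). The Timp3 rise ended on omitting 0.25 d replicate 2 or 3 or 0 d replicate 2 (0.52 to 0.67) and without the pair of arrays (0.67, limma adjusted p = 0.0848). The fall at 0.75 d ended on omitting 0 d replicate 1 (-0.76, limma adjusted p = 0.0597) and was kept without the pair. Its falls at 1.5 and 3 d (-0.71 and -0.74) were lost without the pair (-0.62 and -0.66), and without any array of the later time or 0 d replicate 1 or 3 (-0.79 to -0.58). Without 0 d replicate 2 Timp3 was also lower at 1 and 2 d (-0.81 and -0.87), and without 2 d replicate 2 at 2 d (-0.81).

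Timp2, a widely made inhibitor, read 6.95, 7.11 and 6.70 at 0.5 d and 6.87, 6.87 and 6.75 at 0.75 d, against 7.17, 7.31 and 8.21 at 0 d. The groups did not overlap and Timp2 fell by 0.65 and 0.74 (limma adjusted p = 0.0238 and 0.017), but without the pair of arrays or 0 d replicate 3 the differences were -0.32 and -0.41 and did not pass. The calls also ended on omitting 0.5 d replicate 3 (-0.54) and without 0.75 d replicate 3 (-0.70). Without 0 d replicate 1 Timp2 was also lower at 1.5 and 2 d (-0.75 at both). The cross-linking enzyme lysyl oxidase (Lox), read between 4.97 and 5.69 on all arrays, rose by 0.48 ± 0.13 at 0.25 d (limma adjusted p = 0.00508). Its rise of 0.36 at 0.5 d ended on omitting 0.5 d replicate 2 or 3 or 0 d replicate 1 or 2 (0.32 to 0.34). Loxl1, a related enzyme for elastin fibres, rose by 0.29 at 1 d (limma adjusted p = 0.0446). That call ended on omitting any 1 d array or 0 d replicate 1 or 3 (0.20 to 0.33) and without the pair (0.31), and the mean of its probe sets gave -0.12.

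**Figure D4:**
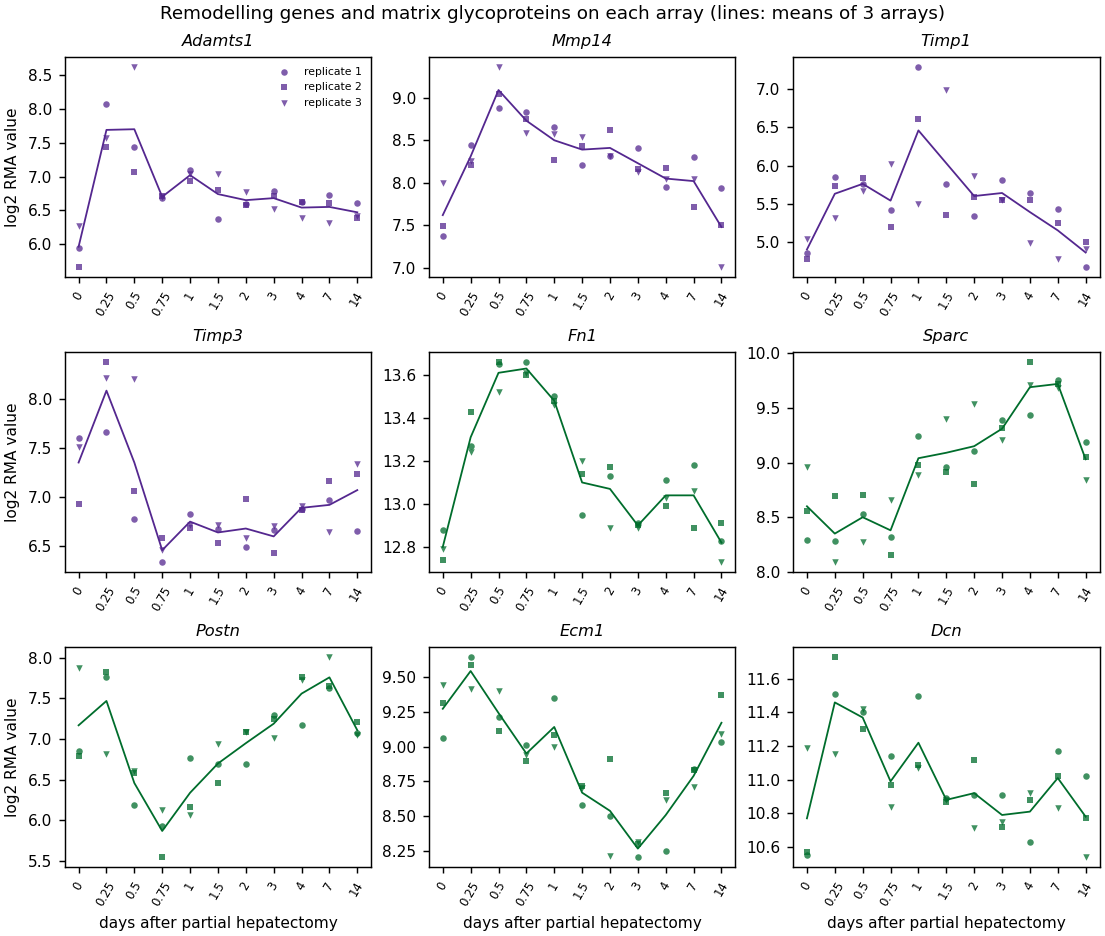
Log2 RMA signal on each array (points, shape by replicate number) and mean of 3 arrays (line) for proteases, inhibitors and matrix glycoproteins against days after surgery (not to scale). Adamts1, Mmp14, Fn1 and Dcn are high in the first day, Sparc at 4 and 7 d, and Ecm1 is lowest at 3 d.

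Other matrix proteases and inhibitors, 14 tested of 22 listed, gave 4 higher and 3 lower at 0.25 d with a median of 0.15. There 17.2% of all genes were higher and 28.8% lower. Mmp8, the neutrophil collagenase, read 5.88, 5.86 and 5.85 at 0.25 d, against 4.83, 4.75 and 4.42 at 0 d, and rose by 1.20 ± 0.19 (limma adjusted p = 2.18e-05). Mmp19 fell by 1.18 (limma adjusted p = 0.000474) and Reck, a membrane inhibitor of metalloproteinases, by 0.70 (limma adjusted p = 0.00149). Adamts4, a relative of Adamts1 with levels near 5 or below, rose by 0.68 with arrays that overlapped, a call lost without any 0 d array or 0.25 d replicate 1 or 3. Reck also fell at every later time up to 3 d.

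Few stellate cell and cytoskeleton genes passed the test. Of the 7 tested, 0 rose and 2 fell at any time by limma, where 35.1% and 38.9% of all genes did. At an unadjusted p under 0.05 the counts were 1 and 3 (all genes 47.4% and 51.2%). By the F-test 3 of the 7 varied, and 11 of 13 other stellate cell markers described below, where 69.4% of all genes did. Lrat, the enzyme that esterifies vitamin A for storage in stellate cells, read 6.25, 7.40 and 6.62 at 0.25 d, against 7.49, 7.31 and 7.80 at 0 d. One early array overlapped 0 d, and the difference was -0.78 ± 0.23 (limma adjusted p = 0.00859). Without 0.25 d replicate 1 it was -0.52 and did not pass (limma adjusted p = 0.0902), and without the pair of arrays it was -0.96 (limma adjusted p = 0.0026). Reln, a secreted glycoprotein that marks stellate cells in liver, read 8.54, 7.81 and 8.47 at 0.5 d, against 8.72, 9.02 and 9.09 at 0 d. All 3 lay below, and Reln fell by 0.67 on the log2 scale (SE 0.16, limma adjusted p = 0.00181), a call kept with each array left out. At 0.75 d Reln was lower without 0 d replicate 1 (-0.54).

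Markers of activated, contractile cells did not pass at any time. Acta2, the smooth muscle actin used to mark activated stellate cells, read 6.85, 8.06 and 7.63 at 4 d, against 6.80, 6.29 and 9.13 at 0 d. The 0 d group holds both the lowest and the highest of these values, and the difference was 0.11 ± 0.53 (limma adjusted p = 0.951). Acta2 reached its lowest difference of -1.11 at 14 d, which was -0.25 without the pair of arrays. Tagln, an actin-binding protein of contractile cells, read 7.50, 7.48 and 8.10 at 1.5 d, against 6.75, 6.62 and 8.09 at 0 d. Its difference was 0.54 ± 0.36 (limma adjusted p = 0.318) with all arrays and 1.01 without the pair (limma adjusted p = 0.0236). Vim, the intermediate filament of mesenchymal cells, read 9.46, 9.13 and 8.88 at 3 d, all above the 7.58, 7.54 and 8.82 of 0 d. The Vim difference of 1.17 ± 0.47 did not pass (limma adjusted p = 0.078), and without the pair it was 1.59 (limma adjusted p = 0.0149). Des, the muscle-type filament of resting stellate cells in rodents, stayed within -0.17 and 0.07 of 0 d, and Pdgfrb, the receptor for platelet-derived growth factor on these cells, within -0.47 and 0.46.

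**Figure D5:**
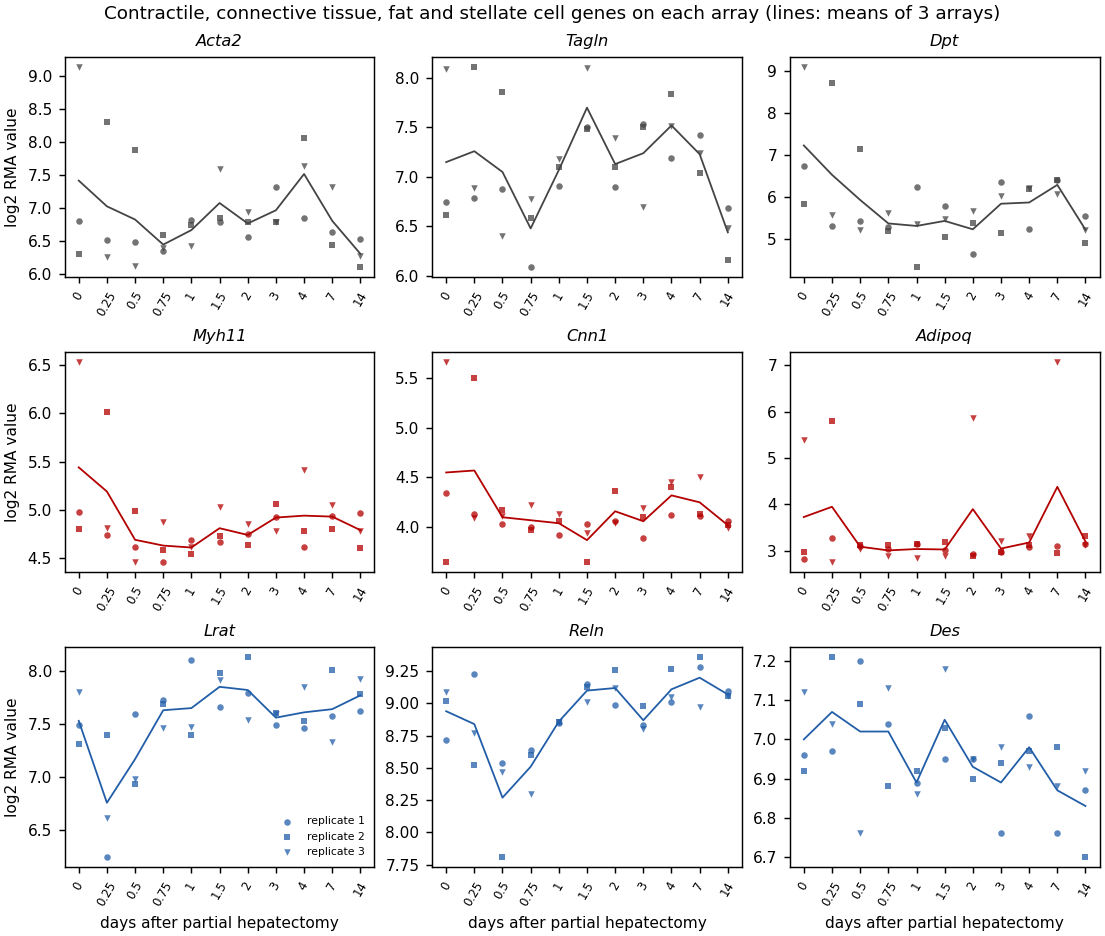
Log2 RMA signal on each array (points, shape by replicate number) and mean of 3 arrays (line) for contractile, connective tissue, fat and stellate cell genes against days after surgery (not to scale). Myh11, Cnn1, Acta2 and Dpt are raised on 0.25 d replicate 2 and 0 d replicate 3, while Lrat dips at 0.25 d and Reln at 0.5 d.

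A further list of 14 stellate cell markers, of which 13 were tested, gave 3 higher and 3 lower at 0.25 d and 1 higher and 5 lower at 0.75 d, with medians of -0.02 and -0.19. Of all genes 17.2% were higher and 28.8% lower at 0.25 d, and 9.84% and 12.7% at 0.75 d. Pth1r, a hormone receptor, read 4.78, 4.93 and 4.49 at 0.25 d, against 5.98, 6.49 and 6.26 at 0 d, and fell by 1.51 on the log2 scale to below 5 (limma adjusted p = 2.99e-07). Ednrb, an endothelin receptor, rose by 1.15 and Hgf, the hepatocyte growth factor made by stellate and endothelial cells, by 0.74 (limma adjusted p = 0.000328 and 0.000735). Angptl6 fell by 0.54. These 4 calls were kept with each array left out. Without the pair of arrays the counts were 4 higher and 2 lower at 0.25 d and 2 and 3 at 0.75 d.

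Genes that make and secrete collagen, 16 tested of 20 listed, changed in both directions. At 0.5 d 4 rose and 2 fell, with a median of -0.01, where 15.8% of all genes rose and 19.4% fell. Without the pair of arrays the call of Plod1 was lost there and that of P4ha1 added. P3h1, a prolyl hydroxylase of collagen, read 7.62, 7.82 and 8.34, against 6.52, 6.04 and 6.26 at 0 d, and rose by 1.65 ± 0.16, a 3.14-fold rise (limma adjusted p = 2.29e-08). P4hb, a disulfide isomerase that is also a subunit of collagen prolyl hydroxylase, rose by 0.48 (limma adjusted p = 1.87e-06). Pcolce, which speeds removal of the procollagen tail, fell early and rose late. It read 5.91, 5.93 and 5.31 at 0.5 d and 7.83, 8.27 and 8.37 at 4 d, against 6.52, 6.66 and 7.03 at 0 d. Pcolce thus lay wholly below 0 d at the first of these times and wholly above it at the other, with differences of -1.02 and 1.42 (limma adjusted p = 0.000115 and 0.000221), both kept with each array left out. With all arrays Pcolce was the 1 gene of the 16 that passed at 4 d, and without the pair of arrays Serpinh1 was also higher.

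Signals and receptors of the matrix changed in both directions. Of 16 signalling genes tested from 18 listed, 2 rose and 4 fell at 0.25 d, with a median of -0.01. At that time 17.2% of all genes rose and 28.8% fell. Without the pair of arrays Pdgfc was also higher. Ccn2, a matricellular protein induced by TGF-beta and by YAP, read 9.13, 9.14 and 8.66, against 6.57, 6.66 and 7.67 at 0 d, and rose by 2.01 ± 0.35, a 4.03-fold rise (limma adjusted p = 5.05e-05). Pdgfra, a receptor for platelet-derived growth factors, rose by 1.43, while Smad3, a transducer of TGF-beta signals, fell by 0.90 and the ligand Pdgfa by 0.69 (limma adjusted p = 5.04e-07, 8.85e-06 and 0.00158). These 4 calls were kept with each array left out.

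Of 19 matrix receptors tested from 22 listed, 3 rose and 5 fell at 0.5 d, and 8 rose and 1 fell at 3 d, with medians of -0.15 and 0.16. Of all genes 15.8% rose and 19.4% fell at 0.5 d, and 10.2% and 10.9% at 3 d. Itga8, an integrin chain of stellate cells, read 5.49, 5.58 and 3.48 at 0.5 d, against 6.65, 7.12 and 7.46 at 0 d, and fell by 2.23 on the log2 scale (limma adjusted p = 6.65e-05). At 3 d Cd44, a hyaluronan receptor, rose by 1.25 and Itga6, a laminin-binding integrin chain, by 0.95 (limma adjusted p = 0.0107 and 0.00114). The call of Cd44 ended on omitting 3 d replicate 2 or 0 d replicate 2. Without the pair of arrays the counts were 3 and 3 at 0.5 d and 8 and 0 at 3 d.

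The last comparison sets 14 d against 4 d. At 14 d 3 members were lower and 1 higher than at 4 d, where 1.51% of all genes fell and 0.374% rose, and the median over members was -0.38. Col5a2 read 6.63, 6.07 and 6.35 at 14 d, against 7.21, 7.63 and 7.58 at 4 d, and fell by 1.12 on the log2 scale (limma adjusted p = 0.0287). Col4a1 fell by 1.06 and Col4a2 by 0.61 (limma adjusted p = 0.0129 and 0.0155), and Ecm1 rose by 0.65 (limma adjusted p = 0.0152). In each of these 4 genes the 3 arrays of 14 d lay wholly on one side of those of 4 d. The calls were lost when single arrays were left out. For Col5a2 these were 14 d replicate 2 or 3 or 4 d replicate 2 or 3 (-1.12 to -0.98), for Col4a1 and Col4a2 14 d replicate 2 or 3 or 4 d replicate 2 (-0.97 to -0.89 and -0.64 to -0.47), and for Ecm1 14 d replicate 2 or 3 or 4 d replicate 1 (0.52 to 0.69). Members called numbered 0 without 14 d replicate 2 or 3, 1 without 4 d replicate 2 and 8 without 14 d replicate 1. With 0.25 d replicate 2 and 0 d replicate 3 out of the fit, which changes only the shared estimate of spread, 9 members were called, 1 higher and 8 lower, where 0.491% of all genes were higher and 2.04% lower in that fit. The added members were Sparc, Lum, Mmp2, Vim and Tagln. In the mean over 11 Kupffer cell and macrophage markers, replicate 1 stood above the other arrays of its time, at 9.72 against 8.71 and 8.21 at 14 d and at 9.66 against 8.78 and 8.97 at 4 d. The mean over 6 neutrophil markers was 6.36, 5.23 and 5.16 in replicates 1 to 3 of 14 d, and 5.71, 5.23 and 5.46 in those of 4 d. At 7 d replicate 1 was likewise high in both (10.06 against 8.84 and 8.89, and 6.15 against 5.12 and 5.22). The part these markers play in the results was not tested.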

How the data were processed

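Total RNA of 33 mouse livers was labelled and hybridized to Affymetrix arrays, and RMA was the authors' method for turning probes into probe set values (per the submitters' processing notes). The deposited values are log2 RMA signals, one column per liver. RMA makes the arrays' distributions alike and compresses differences near the floor. The table holds 45101 probe sets, of which 34945 have a single gene symbol in the platform annotation. The probe set with the highest mean stood for each of 18193 genes, and testing was limited to the 13642 genes that reached log2 5 on 3 arrays or more.

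The fit used limma 3.58.1 under R 4.3.3, with lmFit estimating 1 mean for each time over the 33 arrays and eBayes moderating the spread (22 residual and 3.69 prior degrees of freedom). Later times were compared with 0 d, 4 d with 1 d, 14 d with 4 d, and 1.5 d with the mean of 1 d and 2 d, with two-sided p-values adjusted by Benjamini-Hochberg within a comparison, and the F-test covered the 10 differences from 0 d. P-values set a difference between times against the spread between livers of the same time, pooled over all times. The steps were tested on simulated data. Of 35 further probe sets tested for 25 members, 0 were called in the opposite direction.

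Any of the 41 members could be named, and from other lists the 4 genes past the threshold with the largest differences at the time described. The members and lists were chosen with earlier results of these data known. Pairing of livers by replicate number was examined only between each later time and 0 d. There 3 of 30 pairs of same-numbered arrays correlated over 0.1 in their deviations (r from -0.353 to 0.276). In 0 of 10 comparisons did all pairs. Links between same-numbered arrays of the later times were not examined. The alternatives were no filter, a filter at 7, averaging all probe sets of a gene, quantile normalization and shifting arrays to a common median. Further ones were a robust prior with an intensity trend, the replicate block, only the arrays compared, and each array left out. In the last, the arrays with raised vessel and connective tissue markers were left out together. Figures come from matplotlib 3.10.9 under Python 3.11.15.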

Additional observations from a re-analysis of the deposited data

How the results depend on the processing

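Counts of members called stayed within 1.5 times of the reported counts under no filter, a filter at 7, the mean of probe sets, quantile normalization, a common median and an intensity trend with a robust prior. The replicate number as a block gave 13 in place of 14 called at 0.25 d and moved no count by more than 1.5 times. It ended the calls of Thbs1 at 0.25 d, Lamb1 at 1.5 d and Dpt at 2 d. Fitting only the arrays compared gave 9 at 0.25 d, 9 at 0.5 d and 0 at 7 d, in place of 14, 16 and 3. That setting has fewer arrays to estimate the spread. Leaving out the arrays with raised vessel and connective tissue markers gave 9 in place of 4 for 14 d against 4 d. Each array left out gave 10 to 15 members called at 0.25 d, 10 to 17 at 0.5 d, 7 to 10 at 0.75 d, 5 to 10 at 1 d, 5 to 13 at 1.5 d, 5 to 9 at 2 d, 5 to 12 at 3 d, 5 to 9 at 4 d, 0 to 3 at 7 d and 0 to 0 at 14 d. It gave 5 to 11 for 4 d against 1 d, 0 to 8 for 14 d against 4 d, 0 to 0 for 1.5 d against its neighbours and 29 to 34 by the F-test. The Loxl1 difference at 1 d turned to -0.12 with the mean of its probe sets, and the cause was not tested. Signal near the filter value limits Thbs1, Lox, Loxl1 and Col15a1.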

Other observations

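Markers of other liver cells were measured on the same arrays. For reference, 17.2% of all genes rose and 28.8% fell at 0.25 d, and 9.84% and 12.7% at 0.75 d. The shares were 10.2% and 10.9% at 3 d, and 1.88% and 0.975% at 4 d. Of 11 Kupffer cell and macrophage markers, 5 rose and 0 fell at 3 d with a median difference of 0.79, and 2 rose and 0 fell at 4 d with a median of 0.99. Marco, a scavenger receptor of macrophages, read 9.82, 7.64 and 8.01 at 4 d, against 4.76, 5.39 and 5.55 at 0 d. All 3 arrays of 4 d lay far above those of 0 d, and Marco rose by 3.26 ± 0.63, a 9.57-fold rise (limma adjusted p = 0.00546) that did not pass without 4 d replicate 1 (2.59). The other gene called at 4 d, Cd5l, a protein secreted by macrophages, rose by 1.38 (limma adjusted p = 0.0421) and did not pass with any array of 4 d or 0 d left out (1.13 to 1.54). Of 11 sinusoidal endothelial markers, 1 rose and 4 fell at 0.25 d, with a median of -0.22. Their mean over the list lay between 7.73 and 8.05 on the arrays of 4 d, all above the 7.37 to 7.69 of 0 d, at the time when type IV collagen and Sparc were high. With all arrays no single marker of this list passed at 4 d. Without the pair of arrays Cdh5 was higher at 0.25 and 4 d. Of 5 neutrophil markers tested, 2 rose and 0 fell at 0.25 d, and the mean over 6 measured lay between 5.74 and 5.96 there, against 4.79 to 4.97 at 0 d. Of 12 portal fibroblast and mesothelial markers tested, 0 rose and 2 fell at 0.75 d, and the mean over 14 measured lay between 5.31 and 5.43 there, below the 5.55 to 5.85 of 0 d. At 7 d that mean lay between 5.71 and 5.89. Of 4 cholangiocyte markers tested, 2 rose and 0 fell at 0.25 d, with a mean over 6 measured of 4.98 to 5.31, against 4.65 to 4.99 at 0 d. The part these markers play in the matrix results was not tested.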
